A study of Mus musculus with 9 samples.

Results

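The cells described here carry the label mast cells and basophils of the mouse knee joint after their marker genes, and are 141 of the 16751 cells of the study (0.842%). They were chosen by their own measured values: the raw counts of 5 genes, Mcpt8, Prss34, Cpa3, Ms4a2 and Fcer1a, had to sum to 3 or more in a cell. Female 129/Sve mice, 9 in all and 8 weeks old, gave 1 left knee joint each, which was prepared whole and profiled by Seq-Well, a method that captures single cells with barcoded beads in small wells and counts polyadenylated transcripts. In 5 mice (labelled sick, numbers 1, 3, 4, 5 and 6) antigen-induced arthritis had been started, after sensitization to mBSA, by an injection of methylated bovine serum into the joint. In 4 mice (labelled healthy, numbers 1 to 4) the joint had received phosphate-buffered saline, and all joints were taken 1 week after the injection. Whether the healthy mice had also been sensitized is not given in the sources used here.

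Mast cells and basophils are the cells that carry the high-affinity receptor for IgE, built from an alpha chain (Fcer1a), a beta chain (Ms4a2) and a gamma chain (Fcer1g), and they release histamine, proteases, lipid mediators and cytokines when antigen crosslinks it. Basophils mature in the bone marrow, circulate, and in the mouse express the proteases Mcpt8 and Prss34. Connective tissue mast cells mature in tissues such as the synovium, depend on the receptor Kit, and store the chymases Cma1 and Mcpt4 and the tryptases Tpsb2 and Tpsab1, while the carboxypeptidase Cpa3 is shared by both lineages.

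Between 877 and 3850 cells and between 897477 and 4675909 counts were deposited per mouse. The gated cells, as cells past the 5-gene rule are called here, had a median of 1132 counts and 555 genes, against 891 counts and 347.5 genes in the remaining cells. Mitochondrial and ribosomal RNA-like genes took a larger share of the counts of healthy mice (8.45% to 16.5%) than of sick mice (4.12% to 8.33%), so this sign of RNA quality moved with the groups. For the share of gated cells, values among cells with few such counts are given with that result, and its part in the other results was not tested. Neutrophil genes (12 listed) summed to 125112 CPM (counts scaled to a common library total) and erythroid genes (10 listed) to 226812 CPM in the cells outside the gate. Neutrophil transcripts were found in nearly every cell: S100a8 was counted in all 141 gated cells and in 99.2% of ungated cells with B-lineage genes, so these sums do not give shares of cells. No gated cell shared its barcode with a cell of another library (8 barcodes did so in all), and 4 gated cells had a barcode 1 base away from another of their own library.

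Mcpt8 carried the gate. It was counted in 131 of the 141 cells (92.9%), with 3566 counts and a median of 11 per cell, and gave 70.2% of the summed gate counts. Prss34 was counted in 88 cells with 1004 counts, Cpa3 in 68 cells with 236, Ms4a2 in 63 cells with 132 and Fcer1a in 54 cells with 140. These 141 cells held 87.1% of all Mcpt8 counts of the study, 85.5% of those of Cpa3, 79.5% of Ms4a2, 76.8% of Prss34 and 74.9% of Fcer1a. All 5 genes were found together in 26 cells, while 35 cells had only 1 of them, and in 30 of these it was Mcpt8. Just inside the threshold lay 22 cells with a sum of 3, and just outside it 72 cells with a sum of 2. Of the 385 ungated cells with B-lineage genes (Cd79a, Vpreb1, Vpreb3, Igll1 and Ebf1 summing to 3 or more), which should lack these transcripts, 2.86% had an Mcpt8 count (exact 95% interval 1.43% to 5.05%), at a median depth of 1259 counts, and none had a count of Cpa3 or Ms4a2. Since cells past the gate were left out of this set, its shares for the gate genes are kept low in part by the gate. These intervals and limits cover counting error only.

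The sequences just before the transcription starts of the 5 gate genes are shown because the GATA factor Gata2, a regulator of mast cell and basophil development, is itself among the leading genes of the cells. Each is the 250 bases upstream of the RefSeq start on the gene's own strand, in the reference build GRCm38.p6 (a C57BL/6J genome, whereas the mice were 129/Sve). They lie at chr14:56085198-56085447 (Mcpt8, minus strand), chr17:25298144-25298393 (Prss34, plus), chr3:20242182-20242431 (Cpa3, minus), chr19:11623720-11623969 (Ms4a2, minus) and chr1:173227230-173227479 (Fcer1a, minus). Capitals mark AGATAA, which factors of this family recognise, read on either strand, so that its reverse appears as TTATCT.
Mcpt8: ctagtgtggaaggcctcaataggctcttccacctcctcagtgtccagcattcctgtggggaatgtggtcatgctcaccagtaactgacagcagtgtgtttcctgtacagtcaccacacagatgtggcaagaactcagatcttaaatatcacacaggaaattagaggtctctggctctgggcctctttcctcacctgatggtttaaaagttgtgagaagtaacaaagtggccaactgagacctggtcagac
Prss34: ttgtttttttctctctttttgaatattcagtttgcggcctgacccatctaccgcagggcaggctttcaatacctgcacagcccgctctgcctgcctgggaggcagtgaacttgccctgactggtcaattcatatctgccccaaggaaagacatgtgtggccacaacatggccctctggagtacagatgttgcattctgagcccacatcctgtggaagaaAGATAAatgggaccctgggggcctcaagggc
Cpa3: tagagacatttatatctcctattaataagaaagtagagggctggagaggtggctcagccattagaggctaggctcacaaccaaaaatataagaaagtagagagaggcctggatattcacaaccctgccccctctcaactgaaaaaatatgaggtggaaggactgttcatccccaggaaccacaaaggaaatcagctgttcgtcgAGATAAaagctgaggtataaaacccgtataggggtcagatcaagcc
Ms4a2: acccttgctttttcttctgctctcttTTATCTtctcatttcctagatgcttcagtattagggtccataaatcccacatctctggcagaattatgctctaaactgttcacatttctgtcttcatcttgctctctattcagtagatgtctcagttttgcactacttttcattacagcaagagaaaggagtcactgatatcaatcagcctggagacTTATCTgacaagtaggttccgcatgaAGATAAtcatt
Fcer1a: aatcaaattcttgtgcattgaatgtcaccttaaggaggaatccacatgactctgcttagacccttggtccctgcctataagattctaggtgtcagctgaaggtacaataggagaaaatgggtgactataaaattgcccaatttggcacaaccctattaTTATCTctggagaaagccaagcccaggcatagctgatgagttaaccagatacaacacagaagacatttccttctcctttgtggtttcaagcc
AGATAA stood in 4 of these 5 windows, starting 31 bases before the start in Prss34, 46 in Cpa3, 92 in Fcer1a, and 224, 37 and 11 in Ms4a2, and was not in the window of Mcpt8. Over the 32851 RefSeq mouse promoter windows of this length it was found in 9.99%. Of the 10 leading genes outside the gate that had a window, Jun alone held it. The matches describe letters in a reference genome, and binding of a factor was not measured.

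The gated cells were divided by protease. A cell was called basophil-like when its Mcpt8 and Prss34 counts summed to at least 2 and exceeded its mast cell protease counts. It was called mast-like when its mast cell protease counts summed to at least 2 and were not below the Mcpt8 and Prss34 sum. By this rule 131 of the 141 cells were basophil-like, 0 were mast-like and 10 were neither. Since Mcpt8 and Prss34 were also 2 of the 5 gate genes, and gave 70.2% and 19.8% of its counts, this division describes the chosen cells and tests nothing. The mast-like side was read from the chymase Cma1 alone, since Mcpt4, Tpsb2 and Tpsab1 were not analysed here. Cma1 was rare everywhere, with 5 counts in 5 cells of the whole study, and none of these cells was gated. No cell of the study thus reached the mast protease sum of 2, so the 0 mast-like cells were fixed in advance by the rule. The count of 0 in 141 cells allows a share with a Cma1 count of up to 2.13% (cells pooled over mice), and it does not limit the share of mast cells, which could read 0 for so rare a transcript. The chymase-like protease Mcpt2 and the mast cell transcription factor Mitf also had 0 counts in gated cells. Mcpt8 and Prss34 occurred together in 85 cells, Mcpt8 without Prss34 in 46, and Prss34 without Mcpt8 in 3. In 20 of the basophil-like cells the 2 proteases summed to only 2 or 3.

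The 10 cells on neither side passed through Cpa3 (16 counts), Fcer1a (18) and Ms4a2 (9), with 1 count of Mcpt8 and 2 of Prss34 between them. They had a median of 1499 counts, 5 came from healthy and 5 from sick mice, and 6 also carried granulocyte progenitor genes, so that their lineage was not settled by these markers. Kit, the stem cell factor receptor of mast cells and early progenitors, had 12 counts in 8 gated cells (log2 ratio of gated to other cells -0.42 ± 1.51, SD over 8 mice). Of the label "mast cells and basophils", the basophil part could thus be described from these counts, and a mast cell part could not be assessed from Cma1.

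Lineage markers outside the gate were described next. Of the 15 basophil genes listed, 4 were gate genes. The other 11 were all counted in gated cells, 6 of them had a mean log2 ratio of at least 1, and their median was 1.78, against -0.12 for all 24296 genes. Of the mast cell genes listed, 11 were measured besides the gate gene Cpa3, 5 of these were counted in gated cells, 2 (Srgn and Slc18a2) reached a log2 ratio of 1, and the median was -0.04. All of these genes were measured in the cells that the gate chose, so the counts are a description. Each ratio here is log2((CPM in gated cells + 10)/(CPM in the mouse's other cells + 10)), averaged with equal weight over the 8 mice that had at least 5 gated cells (all but healthy mouse 2). It understates the difference for genes of low level, and since it compares cells with those the gate left out, no test was made on it. Over all genes, 117 of 24296 (0.482%) had a mean log2 ratio of at least 1.

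Cd200r3, an activating receptor of basophils, was counted in 27 gated cells (19.1%) and 0 of 690 ungated cells with eosinophil genes, and 82% of its counts in the study were in gated cells. In CPM of the gated cells it stood at 109, 0, 0 and 416 in healthy mice 1 to 4 and at 482, 111, 347, 94.2 and 203 in sick mice 1, 3, 4, 5 and 6. The 2 groups overlapped, and healthy mice 2 and 3, both at 0, had 2 and 9 gated cells. Gata2 was counted in 36 gated cells (25.5%) but in only 0.379% of the others, and the gated cells held 49.3% of its counts. Hdc, the enzyme that makes histamine, was in 38 gated cells (27.0%) and 9.58% of the others (log2 ratio 1.35 ± 0.81). Slc18a2, the transporter that loads histamine into granules, was in 19 gated cells, all of them among the 113 from sick mice. For the 28 gated cells of healthy mice, pooled over mice, a count of 0 allows a share of up to 10.7%. This difference was not tested.

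**Figure D1:**
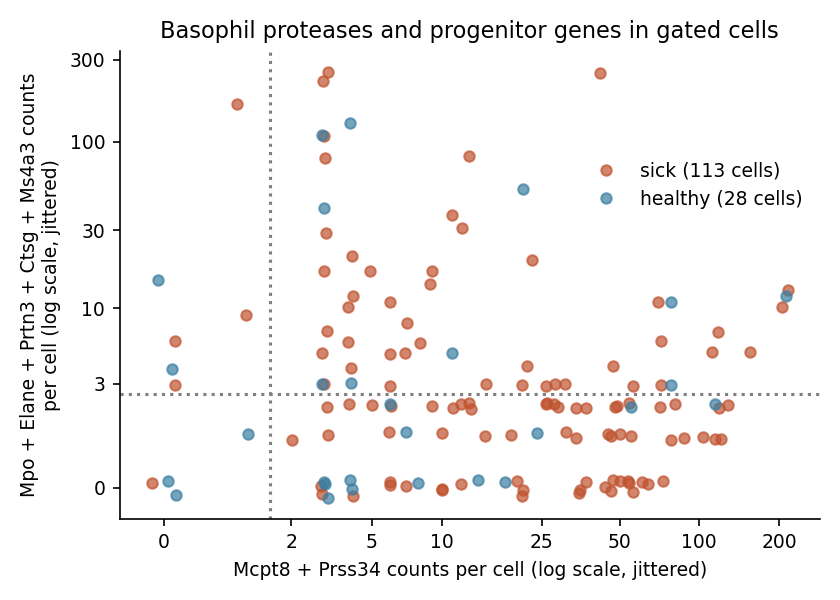
Each point is 1 of the 141 gated cells, placed by its summed counts of the basophil proteases Mcpt8 and Prss34 (horizontal, log scale) and of 5 granulocyte progenitor genes (vertical, log scale), with a small jitter; dotted lines lie just below sums of 2 and 3. Most cells lie to the right of the vertical line, and 60 lie above the horizontal one, many of them with few protease counts.

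After the gate's own genes, cytokines, chemokines and immediate early genes led the gated cells. The 20 genes with the highest mean log2 ratio, among genes counted in at least 20% of gated cells, opened with the gate genes Mcpt8 (8.52 ± 1.08, SD over 8 mice), Prss34 (7.32 ± 1.28), Cpa3 (6.29 ± 0.92), Fcer1a (5.57 ± 0.95) and Ms4a2 (5.25 ± 0.80). The cytokine Il6 followed at 4.67 ± 2.21 and the macrophage inflammatory chemokines Ccl4 and Ccl3 at 4.09 ± 1.26 and 3.87 ± 0.68. Gata2 stood at 3.97 ± 2.04, Rgs1, a regulator of G protein signalling, at 2.87 ± 2.14, and Csf1, the macrophage growth factor, at 2.48 ± 2.11. The spread between mice was widest for Il6, Rgs1, Csf1 and Gata2, and narrowest for Ccl3. For each of the widest 4, the gated cells of healthy mouse 3 held 0 counts.

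The remaining leading genes were Nfkbiz, an inducible NF-kappaB cofactor (2.04 ± 1.06), the immediate early genes Fosb, Jun and Egr1, the granule membrane protein Cd63 (1.73 ± 1.14), the interferon-inducible Ifitm1, the granule protease Ctsg and the signalling inhibitor Spry2. Cd63-ps, a pseudogene nearly identical to Cd63, ranked among them at 2.00 ± 1.05, and how the authors' counting split reads between the pair is uncertain. Of the 15 leading genes outside the gate, Ccl4, Ccl3, Nfkbiz, Cd63-ps and Fosb were above the other cells in all 8 mice, Csf1 in 6, and the other 9 in 7. Healthy mouse 3, with 9 gated cells, was the low mouse for several of them: its log2 ratio was -0.44 for Il6, -0.72 for Gata2 and -1.49 for Rgs1. Its gated cells held 0 counts of each of these genes. The ratios were thus set by the added 10 CPM and the level in its other cells.

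**Figure D2:**
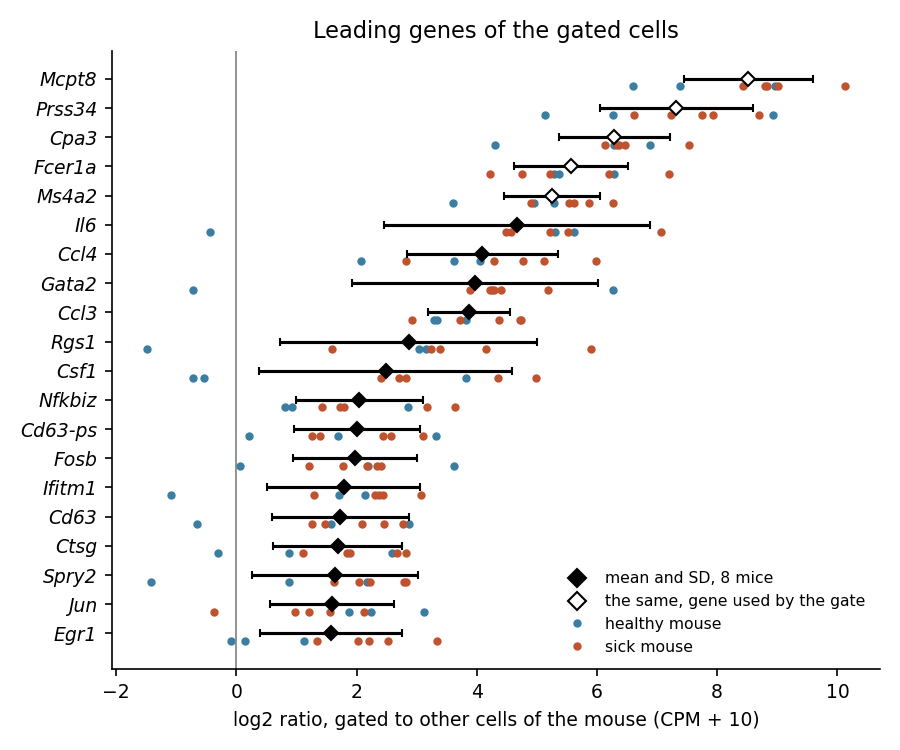
Mean log2 ratio (horizontal) of gated to other cells for the 20 leading genes, with diamonds and bars for the mean and SD over 8 mice (open for the 5 genes used by the gate) and points for single mice. The gate genes are far above 0 in every mouse, while for genes such as Rgs1 and Csf1 single healthy mice lie below 0. For Rgs1 and Csf1, the gated cells of those mice held 0 counts of the gene.

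Several granule and receptor genes of the gated cells were shared with other cells. Among 17 measured granule protease and proteoglycan genes, 6 had a log2 ratio of at least 1: Mcpt8, Prss34, Cpa3, Cd63 and Ctsg, and serglycin (Srgn), the proteoglycan core on which granule proteases are packed, which was in 118 gated cells but also in 50.3% of the others (1.19 ± 0.50). Ctsg was in 42.6% of gated cells and in 43.2% of ungated cells with a summed count of 3 or more over granulocyte progenitor genes, of which Ctsg is one. It stood at 631 CPM over all gated cells and at 617 CPM in these ungated cells. In gated cells with and without that sum it stood at 851 and 199.7 CPM. Since the sum includes Ctsg, the levels split by it are a description. Cd63 was in 62.4% of gated cells, 46.9% of ungated progenitor-sum cells and 40.6% of ungated eosinophil-gene cells. Prg2, the major basic protein of eosinophils, was in 25 gated cells and had a ratio of -0.66 ± 1.85. In the IgE receptor and proximal signalling list, 3 of 22 genes reached 1: Fcer1a, Ms4a2 and the adaptor Lat2 (1.49 ± 1.20). The gamma chain Fcer1g, which many myeloid cells share, was in 68 gated cells and 33.5% of the others (-0.01 ± 0.95), and the kinases Lyn (-1.82 ± 1.33) and Syk (-0.55 ± 1.20) had ratios below 0. Among the lipid mediator enzymes, Alox5ap, needed for leukotriene synthesis, was in 32 gated cells and 19.5% of the others (-0.20 ± 0.65), and the leukotriene C4 and prostaglandin D2 synthases Ltc4s and Hpgds had 0 counts in gated cells.

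A part of the gated cells also carried the transcripts of granulocyte progenitors. Of the 141, 60 (42.6%) had a summed count of 3 or more over Mpo, Elane, Prtn3, Ctsg and Ms4a3, a sum that 11.9% of all cells reached. These 60 cells were deeper, with a median of 1646.5 counts against 887 in the other 81, close to the 1578.5 of the 1926 ungated cells with the progenitor sum. Mcpt8 was counted in 91.7% of the 60 and 93.8% of the 81, but Prss34 in 43.3% against 76.5%, Gata2 in 15% against 33.3% and Cd200r3 in 11.7% against 24.7%. The pooled level of Mcpt8 was also lower in the 60 cells, at 9100 CPM against 24052 CPM in the 81. Mpo, the myeloperoxidase of neutrophil precursors, went the other way, at 3559 and 258 CPM. That gap was set by the split, since Mpo is 1 of the 5 genes of the sum.

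In 1926 ungated cells with the progenitor sum, 6.91% (exact 95% interval 5.81% to 8.13%) had an Mcpt8 count, above the 2.86% of ungated B-lineage cells. Both sets leave out the cells that passed the gate. When every cell was thinned to 500 counts, leaving out 82 and 30 shallower cells, the shares were 2.11% and 1.69%. The overlap was greatest near the threshold: 63.6% of the 22 cells with a gate sum of 3 had the progenitor sum, against 19.2% of the 26 cells with a gate sum of 41 to 80, although it was 52.6% in the 19 cells above 80. Depth differed between these steps, with medians of 1776.5, 876.5 and 1600 counts. At a gate sum of 4 or 5 the overlap was 58.8% at a median of 1017. Across gated cells the progenitor sum had a Spearman correlation of 0.53 with total counts. The part of depth was not tested. Doublets and free RNA were not separated from true co-expression, and their part in this overlap was not tested. Only 6 gated cells also reached a sum of 3 over the eosinophil genes Prg2, Epx, Siglecf, Ccr3 and Il5ra, 3 did so for the B-lineage genes, and 76 passed none of the other 3 sums.

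Some cytokine transcripts were concentrated in the gated cells. Of the 20 cytokine and chemokine genes listed, 7 (Il6, Ccl4, Ccl3, Csf1, Hgf, Il4 and Il13) had a mean log2 ratio of at least 1 and 3 of -1 or less, with a median of -0.0095 against -0.12 for all genes. Il13, a type 2 cytokine, was counted in 21 gated cells, in 0.0542% of the others and in 0 of 690 ungated eosinophil-gene cells, and 76.0% of its counts in the study were in gated cells. Il4, the other canonical type 2 cytokine, was less confined to the gated cells. It was counted in 17 of them, which held 48.4% of its counts, and in 29 cells outside the gate. Of the 690 ungated eosinophil-gene cells, 9 (1.30%) had an Il4 count. Il6 was counted in 43 gated cells, which held 68.8% of its counts. In the B-lineage cells the shares with a count were 0% for Il13, 0.26% for Il4 and 0.779% for Il6. Ccl3 and Ccl4 were spread more widely, with 24.4% and 22.1% of their counts in gated cells. Tnf was in 9 gated cells and its log2 ratio was -0.74 ± 1.43.

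Il4 or Il13 was counted in 31 of the 113 gated cells of sick mice (27.4%) and in 0 of the 28 of healthy mice. Over those 28 cells, which 4 mice shared, a count of 0 allows a share of cells with a count of up to 10.7%, for counting error only. By mouse, the carriers were 0 of 16 gated cells in sick mouse 1, 15 of 46 in sick mouse 3, 3 of 12 in sick mouse 4, 6 of 14 in sick mouse 5 and 7 of 25 in sick mouse 6. Sick mouse 1 thus stood with the healthy mice at 0, the groups overlapped, and this difference was not tested. The healthy gated cells were the deeper ones, at a median of 1673.5 counts against 1107. They passed the gate more weakly, with a median gate sum of 6. In sick mice it was 13 in gated cells without Il4 or Il13 and 47 in the carriers. The part of gate sum and depth in this difference was not tested. Il6 was in 6 healthy cells, 4 of them from mouse 1 and 2 from mouse 4, and in 37 sick cells.

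A few cells dominated these counts. The 3 cells with most counts held 52.2% of the gated Il4 counts, 31.6% of those of Il13 and 29.9% of those of Il6, against 16.4% for Ccl3. The 31 carriers of Il4 or Il13 had a median gate sum of 47 against 11 in the other gated cells, at a lower median depth (878 against 1214 counts). Both Il4 and Il13 were counted in 7 of them, and Il6 in 20. Of the 7 cytokine genes with a log2 ratio of at least 1, 48 gated cells had 3 or more and 49 had none.

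**Figure D3:**
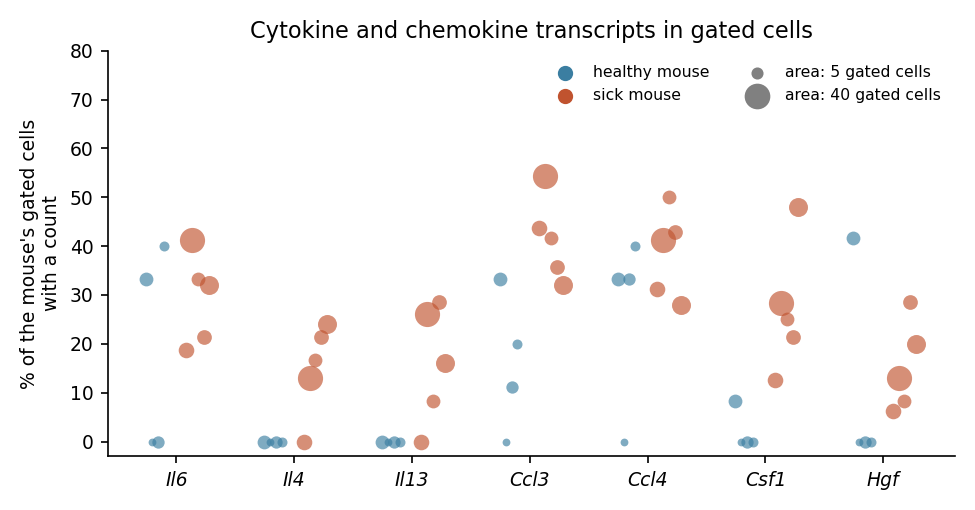
Percent of each mouse's gated cells with a count of 7 cytokine and chemokine genes, 1 point per mouse, with the area showing the number of gated cells. Il4 and Il13 are at 0 in all 4 healthy mice and in sick mouse 1, while Ccl4 and Ccl3 appear in most mice of both groups.

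The share of joint cells that passed the gate did not differ between the groups beyond the spread between mice. Gated cells were 12 of 1051 (1.14%), 2 of 877 (0.228%), 9 of 1400 (0.643%) and 5 of 1223 (0.409%) in healthy mice 1 to 4. They were 16 of 2094 (0.764%), 46 of 3850 (1.19%), 12 of 1397 (0.859%), 14 of 2266 (0.618%) and 25 of 2593 (0.964%) in sick mice 1, 3, 4, 5 and 6. Healthy mouse 1 lay at the height of the sick mice, and only sick mouse 3 was above all healthy mice. The means were 0.605% ± 0.396 (SD, n = 4) and 0.880% ± 0.217 (SD, n = 5), a difference of 0.275 percentage points (exact two-sided permutation test over the 126 splits of 9 mice, p = 0.206, adjusted over the 2 shares tested 0.206, where 0.0159 is the smallest p possible).

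Basophil-like cells were 0.494% ± 0.347 (SD, n = 4) of healthy and 0.834% ± 0.226 (SD, n = 5) of sick joint cells, a difference of 0.341 points (exact permutation p = 0.127, adjusted 0.206). Without healthy mice 2, 3 and 4 the differences turned to -0.262 and -0.117 points, a comparison of healthy mouse 1 alone with the 5 sick mice, in which no exact p can be below 0.333. Without healthy mouse 2 alone the first difference was 0.149 points, and without healthy mouse 1 it was 0.453. Among cells with under 10% mitochondrial and ribosomal RNA-like counts it was 0.0344 points (0.157 for basophil-like cells), among cells with at least 400 genes 0.135, outside the progenitor sum 0.186, and after thinning every cell to 500 counts 0.450. Set against the progenitor-sum cells, gated cells numbered 5.27 ± 2.69 per 100 in healthy and 7.82 ± 2.29 per 100 in sick mice, with the ranges overlapping (1.98 to 8.57 and 4.55 to 10.8).

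**Figure D4:**
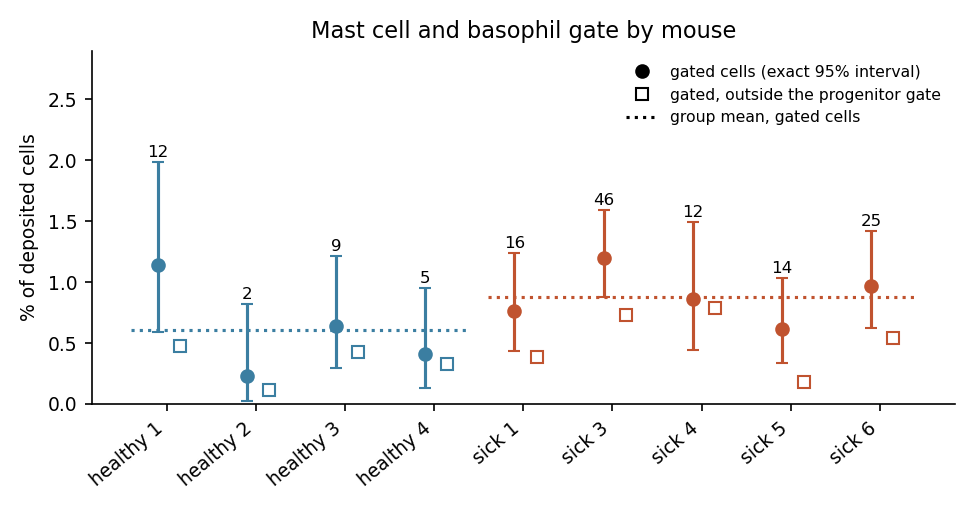
Gated cells as percent of deposited cells in each of the 9 mice, with exact (Clopper-Pearson) 95% intervals, the number of gated cells above each bar, open squares for gated cells outside the progenitor sum and dotted lines for the group means. The intervals of most mice overlap, and healthy mouse 1 at 1.14% is close to the highest sick mouse at 1.19%.

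In counts summed over the whole joint, none of the gate genes was called between sick and healthy mice. Here fewer cells of a type and less RNA per cell cannot be told apart. Of 10323 genes tested with edgeR's quasi-likelihood test, 96 (0.93%) were called at an adjusted p under 0.05, 65 higher and 31 lower in sick mice. The number was 257 without healthy mouse 1, 62 without healthy mouse 2, 60 without healthy mouse 4, 60 without sick mouse 3 and 53 without sick mouse 5. Mcpt8 stood at 210, 19.2, 60.5 and 195 CPM (scaled by edgeR's TMM factors) in healthy mice 1 to 4 and at 105, 237, 216, 177 and 322 CPM in sick mice 1, 3, 4, 5 and 6. Healthy mice 1 and 4 lay within the sick range, and the log2 fold change was 0.77 ± 0.46 (SE, edgeR adjusted p = 0.475).

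The log2 fold changes of the other gate genes were 0.50 for Prss34, 0.14 for Cpa3, 0.09 for Ms4a2 and -0.55 for Fcer1a, with edgeR adjusted p from 0.606 to 0.942. Of 12 tested basophil genes edgeR called 0 (2 at an unadjusted p under 0.05), of 3 mast cell genes 0 (1), of 19 IgE receptor and signalling genes 0 (2), and of 9 histamine and lipid mediator genes 0 (4). DESeq2 called 2, 0, 0 and 2 of these, Ifitm1 and Hdc higher and Cd69 and Alox15 lower in sick mice. Over all tested genes, 1426 of 10323 had an unadjusted p under 0.05 in edgeR, and DESeq2 called 258 of 10322. In the granule list 1 of 14 was called, the eosinophil protein Prg3 (log2 fold change -1.30, edgeR adjusted p = 0.0184). In the cytokine list 1 of 15 was called, the monocyte chemokine Ccl7 (4.52, edgeR adjusted p = 0.0262), which is not one of the genes that led the gated cells.

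Hdc came closest among the mediator genes. It stood at 60.6, 71.8, 51.8 and 35.0 CPM in healthy mice 1 to 4 and at 85.0, 118, 77.7, 172 and 124 CPM in sick mice 1, 3, 4, 5 and 6. All 5 sick mice were above all 4 healthy ones, and the log2 fold change was 1.08 ± 0.25 (SE, edgeR adjusted p = 0.0519). DESeq2 called it, with a fold change of 1.07 and an adjusted p of 0.0063. Gated cells held 2.94% of the Hdc counts of the study, so most of this signal lay in other cells. Ccl4 had a log2 fold change of 1.16 (edgeR adjusted p = 0.180), Ccl3 0.90 (0.291) and Il6 1.45 (0.435), each with 2 or 3 of 5 sick mice above all healthy mice. Ccl4 passed the threshold without healthy mouse 1 (1.71, edgeR adjusted p = 0.0394) and without a filter on low counts (1.25, edgeR adjusted p = 0.0369), and its adjusted p ranged up to 0.876 over the other alternatives.

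Within the gated cells, sick mice were compared with healthy mice 1, 3 and 4, the 3 with at least 5 gated cells. Of 310 genes with enough counts, edgeR called 0 (0.0%), while 35 had an unadjusted p under 0.05 and DESeq2 called 13. In simulated data of this size edgeR called 20.6% of genes changed 2-fold and 84.5% of those changed 4-fold. There, 121 of 359 tested genes were changed, and all genes shared 1 dispersion (spread between mice). With few changed genes the adjustment is stricter, so these shares may be too high for the real data. In the real data the 5 genes with the smallest p were Car2, Top2a, Mir6236, Wfdc21 and Ngp, with edgeR adjusted p from 0.111 to 0.135. Car2, a carbonic anhydrase abundant in erythroid cells, stood at 3529, 10949 and 2186 CPM (of the tested genes, TMM-scaled) in healthy mice 1, 3 and 4 and at 938, 1540, 634, 250 and 2017 CPM in sick mice 1, 3, 4, 5 and 6 (log2 fold change -2.30 ± 0.58, SE). All 5 sick mice were below all 3 healthy ones, as they were for the DNA topoisomerase Top2a of dividing cells (-1.37 ± 0.35), and all were above them for the neutrophil granule gene Ngp (1.95 ± 0.54) and for Wfdc21 (1.86 ± 0.48). Mir6236, whose symbol names a microRNA hairpin, was at 2258, 18395 and 21237 CPM in the healthy mice and between 1399 and 5545 CPM in the sick mice, so healthy mouse 1 lay among the sick ones. Leaving out healthy mouse 1 made Mir6236 the 1 gene that edgeR called, and leaving out healthy mice 3 and 4 turned its log2 fold change from -2.36 to 0.37.

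Markers of neutrophils and red cells were also read in the gated cells. Of 12 neutrophil genes 7 were tested, all 7 had a log2 fold change above 0 and 6 an unadjusted p under 0.05, with a median of 1.76. Of 10 erythroid genes 5 were tested, all 5 were below 0 and 4 had such a p, with a median of -2.11. The median over all 310 genes was -0.005. EdgeR called none of these genes, while DESeq2 called 4 of the 7 neutrophil genes (Ngp, Camp, S100a8 and S100a9) higher and 1 of the 5 erythroid genes, Car2, lower in sick mice. The neutrophil list summed to 9144 to 30909 CPM in the gated cells of the 4 healthy mice and to 63580 to 154542 CPM in those of the sick mice, without overlap. The erythroid list summed to 62850 to 441560 and 38133 to 244146 CPM, and there the groups overlapped. In the cells outside the gate the neutrophil list summed to 47009 to 117719 CPM in healthy and 105337 to 174374 CPM in sick mice. The part of such transcripts in the differences within the gated cells was not tested.

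The interferon-stimulated list rose in the joint, with 20 of 26 tested genes called higher in sick mice, but only Ifitm3 of its 28 genes had enough counts to be tested in gated cells (log2 fold change 1.24, edgeR adjusted p = 0.327). Its sum ranged from 590 to 831 CPM in the gated cells of healthy mice and from 1072 to 1907 CPM in those of sick mice, and none of the 28 listed genes had a log2 ratio of gated to other cells of 1 or more. The interferon-inducible Ifitm1, which is not on that list, stood at 1.78 ± 1.27.

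**Figure D5:**
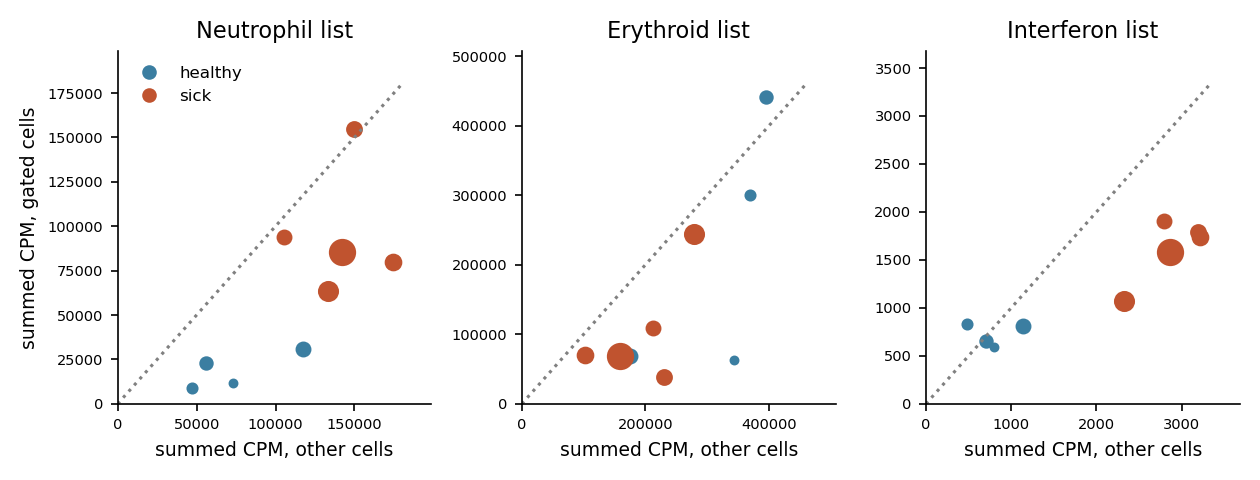
Summed CPM of the neutrophil, erythroid and interferon-stimulated lists in the gated cells (vertical) and the other cells (horizontal) of each of the 9 mice, with the point area showing the number of gated cells and the dotted line marking equality. For the neutrophil and interferon lists every sick mouse lies higher on the vertical axis than every healthy mouse, and most points are below the line.

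Among the leading genes of the gated cells, the mice of the groups did not overlap for Ccl4 and Egr1, although neither was called. Ccl4 stood at 423, 1095 and 625 CPM in healthy mice 1, 3 and 4 and at 2970, 1848, 4753, 1249 and 1690 CPM in sick mice 1, 3, 4, 5 and 6. All 5 sick mice were above the 3 healthy ones, with a log2 fold change of 1.90 ± 0.58 (SE, edgeR adjusted p = 0.157). For the immediate early gene Egr1 all 5 sick mice were also above (2.21 ± 0.65, edgeR adjusted p = 0.157). The healthy values rested on very few counts. Healthy mice 1, 3 and 4 had 9, 5 and 2 gated counts of Ccl4, and 4, 1 and 1 of Egr1. Among the 81 cells outside the progenitor sum, with a lower minimum of 3 cells per mouse, 65 genes could be tested. There edgeR called 2 genes, Egr1 and the mitochondrial ribosomal RNA mt-Rnr1, and the log2 fold change of Ccl4 was 0.85 (edgeR adjusted p = 0.337). Among all gated cells the other leading and mediator genes were as follows. Srgn had a log2 fold change of 0.96 (edgeR adjusted p = 0.306), Hdc 1.05 (0.565), Ccl3 0.73 (0.520) and Il6 1.31 (0.527), and for these the groups overlapped. The 5 gate genes had log2 fold changes from -0.29 to 0.48, given as a description because they chose the cells.

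The change from healthy to sick was also compared between gated and other cells of the same 8 mice, in 1 model with the mouse as a term. Of 310 genes edgeR called 0 (0.0%), with 27 at an unadjusted p under 0.05, and DESeq2 called 0. The smallest p belonged to Tmbim6, Hist1h2ae, Ngp, Car2 and Egr1, which shared an edgeR adjusted p of 0.279. For Egr1 the change in gated cells exceeded that in the other cells by 2.45 ± 0.77 (SE) on the log2 scale, and for Ngp by 1.55 ± 0.48. For Car2 it was lower by 1.85, that is a difference of -1.85 ± 0.58. In simulated data this test called 14.3% of genes whose difference was 2-fold and 55.2% of those at 4-fold. The gated counts were the ones simulated above, with the same limits. The gated and other cells of a mouse were drawn independently there.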

How the data were processed

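Seq-Well counts of 9 joints were used. Per the labels' protocols, the authors converted reads with bcl2fastq, processed them with Picard and the Drop-seq core computational protocol 1.0.1, aligned with STAR and merged the sequencing rounds of a sample. The extract protocol names the human build GRCh38 and the submitters' processing notes name GRCm38 and mm9; the symbols in the table are mouse symbols. The authors deposited raw counts of 24296 genes in 16751 cells, all whole numbers, with at least 397 counts and 199 genes per cell. A cell's group and mouse came from its column name, matched to the labels, which describe separate mice and give no batch.

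All deposited cells were kept. No doublet caller was run; cells past a second marker sum were counted instead. Counts were summed per mouse over all cells, gated cells and other cells, and tested with edgeR 4.0.16 in R 4.3.3 (filterByExpr, TMM, quasi-likelihood test, Benjamini-Hochberg over all tested genes, 0.05), with the mouse as the unit and a minimum of 5 gated cells per mouse. For the gated cells outside the progenitor sum the minimum was 3 cells per mouse. Standard errors were taken from the F statistic. DESeq2 1.42.0, other size factors, no low-count filter, other gates, thinning, stricter cell filters, a replicate block and leaving out mice were alternatives. Shares were tested by exact permutation and given exact (Clopper-Pearson) intervals. The scripts were tested on simulated data. Named genes were the gate genes, the 20 leading genes, listed genes (the 5 most abundant of each list, and all basophil, mast cell and IgE receptor genes), the tested basophil, mast cell, granule and mediator genes in the joint, and, where none was called, the 5 with the smallest p. Genes outside this rule (Tnf, Egr1 and Ccl4 within gated cells and others) were chosen after their values were seen. The members and gene lists were chosen with earlier results of these data known.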

Additional observations from a re-analysis of the deposited data

Results flagged for a closer look

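Each of these 8 levels in gated cells stood apart from the other mice of its group by a gap test, among 57 groups of 4 or 5 mice tested, where chance alone marks about 1 in 20. In sick mouse 4, Cpa3 was at 2080 CPM (830.3 to 1072 in the other sick mice), Rgs1 at 2250 CPM (94.2 to 529.9; 26 counts in 7 cells) and Ifi27l2a at 347 CPM (62.8 to 96.3; 4 counts in 2 cells). In sick mouse 6, Il6 was at 2750 CPM (240.8 to 852.5), from 95 counts in 8 cells, and Csf1 at 695 CPM (96.3 to 260), from 24 counts in 12 cells. Gata2 was at 534 CPM in sick mouse 5 (192.7 to 260.8), and Fosb at 530 CPM in sick mouse 1 (231.8 to 260). Csf1 was at 353 CPM in healthy mouse 1 and at 0 in the other healthy mice, and its 13 counts came from 1 cell.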

How the results depend on the processing

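The number of gated cells, 2 to 12 in the healthy mice, limits every comparison, and the share of mitochondrial and ribosomal RNA-like counts, higher in healthy mice, cannot be told apart from the group. Healthy mice 2, 3 and 4, whose shares of such counts were the highest of the 9 mice, were left out together, which leaves 1 healthy mouse that is assumed to vary like the sick mice. Without these 3 mice the share differences were -0.262 and -0.117 points, the log2 fold changes in the whole joint were -0.44 for Prss34, -0.65 for Cpa3 and -0.39 for Ms4a2, and 12 genes were called in place of 96. The other alternatives kept both share differences above 0 and short of the threshold after adjustment, with 0.149 to 0.453 and 0.214 to 0.493 points when 1 mouse was left out. The basophil-like share came closest. After thinning to 500 counts its exact permutation p was 0.0317 (adjusted 0.0635), with 4 of 5 sick mice above all healthy mice. Without healthy mouse 1 it was 0.0357 (adjusted 0.0714), the smallest p possible there, with all 5 above. The whole joint gave 258 calls with DESeq2, 282 without a filter on low counts, 51 among cells with at least 400 genes and 53 to 257 with 1 mouse left out. Within gated cells DESeq2 called 13, the cells outside the progenitor sum (chosen after seeing the data) gave 2, and leaving out 1 mouse gave 0 to 1. The replicate numbers shared by the groups did not pair the mice: same-numbered mice correlated at 0.173, -0.0478 and 0.0701, and with a replicate block 71 genes were called in the joint and 0 within gated cells. Small changes turned sign in the joint: Cpa3 to -0.09 and Ms4a2 to -0.23 with the replicate block, Cpa3 to -0.18 among cells with at least 400 genes, and, with 1 mouse left out, Cpa3 between -0.15 and 0.73 and Ms4a2 between -0.17 and 0.39. With a gate threshold of 5, which left healthy mouse 1 alone in its group, Car2 turned to 1.55 within gated cells and 1.29 in the comparison with other cells. Mir6236 turned to 0.37 with a minimum of 10 gated cells and without healthy mice 3 and 4, 2 alternatives that leave the same mice. Unless the alternative's own construction shows it, the cause was not tested.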

Other observations

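The lists of receptors, transcription factors and cell cycle genes, of which single members are named above, were described as a whole. Of 34 receptor genes measured, 4 had a log2 ratio of gated to other cells of at least 1, 2 of them Cd200r3 and Csf2rb, the shared beta chain of the receptors for interleukin 3, interleukin 5 and GM-CSF (28 gated cells, 1.25 ± 2.13). Il1rl1, the receptor for interleukin 33, was in 12 gated cells and 0.747% of the others (1.67 ± 1.56). Of 30 transcription factors, 5 reached 1, with Gata2 first and Jun and Junb the most abundant (316 and 284 counts). Of 20 cell cycle genes none reached 1; Top2a was in 60 gated cells and Mki67 in 55. Cdk6, a cell cycle kinase listed here among the progenitor genes, varied little over mice (1.55 ± 0.16, above 0 in 8 of 8 mice).

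The Spearman correlation of Mcpt8 counts was taken across the 141 gated cells, pooled over mice and sharing depth and library. It was 0.75 with Prss34 and 0.58 with Cpa3, which helped choose the cells as Mcpt8 did, so these 2 values are a description. The correlation was 0.46 with Il6, 0.45 with Cd200r3 and -0.30 with the globin gene Hba-a1. Among progenitor genes it was -0.34 with Elane, -0.15 with Mpo and 0.02 with Ctsg. With total counts it was -0.11.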
